A study of Mus musculus with 6 samples.

Results

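Peroxisome assembly and the lipid pathways of the peroxisome were examined through 34 genes in inguinal white adipose tissue, a subcutaneous depot. The genes were taken by symbol from a table of 21900 distinct genes, and all 34 were found. They comprised 13 peroxins, the proteins that build the organelle, and 21 enzymes and transporters of lipid oxidation and ether lipid synthesis. The 3 knockout libraries came from mice of genotype Foxp4AdipoQΔ/Δ, in which the forkhead transcription factor gene Foxp4 was deleted with a Cre recombinase named for adiponectin (AdipoQ), a gene of mature adipocytes. The RNA came from whole tissue, which also holds cells in which that Cre is not active. The 3 control libraries came from Foxp4fl/fl mice, and the labels mention no Cre for them, so Cre and the loss of Foxp4 cannot be told apart. Both groups were C57BL/6 mice of 2 months that were kept at 22 °C on chow and then spent 7 days at 4 °C, a treatment that recruits thermogenic adipocytes in this depot. The labels do not state the sex of the mice or whether a library was 1 mouse or a pool, and p-values therefore measure the spread between these libraries, which may be technical. Values are FPKM, reads scaled to exon length and to library size, as deposited by the authors.

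A peroxisome imports folded enzymes from the cytosol, with PEX5 and PEX7 as receptors, PEX13 and PEX14 as the docking site, a ring of ubiquitin ligases that includes PEX2 and PEX10, and a motor holding PEX6, anchored by PEX26, that takes the receptor out again. PEX3, PEX16 and PEX19 insert the membrane proteins, and the PEX11 proteins elongate the organelle before it divides. Inside, very-long-chain and branched fatty acids are shortened by beta-oxidation, phytanic acid by alpha-oxidation, and the first steps of ether lipid synthesis take place. Peroxisomes are abundant in thermogenic fat, and many of their enzymes are known targets of PPAR nuclear receptors, which bind a direct repeat of a hexamer as a dimer with RXR.

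Promoter windows are printed for Acot4, Pex13, Acaa1a and Acot8, 4 of the 5 members with an unadjusted p under 0.05 in the comparison of genotypes below. That of the other, Hsd17b4, is not shown here. Each window holds 250 bases before and 50 bases after the RefSeq start on the gene's own strand, 5′ to 3′, in the build GRCm38.p6. Capitals mark the matches to 2 motifs, searched on both strands: TGACCT, a single binding hexamer of nuclear receptors, and TGTTTAC, a forkhead core. The motifs overlapped in none of these windows.
Acot4, chr12:84038129-84038428, plus strand: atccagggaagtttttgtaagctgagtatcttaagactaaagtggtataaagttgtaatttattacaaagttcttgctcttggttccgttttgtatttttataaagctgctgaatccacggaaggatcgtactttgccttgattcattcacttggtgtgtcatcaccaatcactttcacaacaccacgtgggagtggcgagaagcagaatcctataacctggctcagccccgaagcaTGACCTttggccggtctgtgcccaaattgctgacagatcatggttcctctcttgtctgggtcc
Pex13, chr11:23665834-23666133, minus strand: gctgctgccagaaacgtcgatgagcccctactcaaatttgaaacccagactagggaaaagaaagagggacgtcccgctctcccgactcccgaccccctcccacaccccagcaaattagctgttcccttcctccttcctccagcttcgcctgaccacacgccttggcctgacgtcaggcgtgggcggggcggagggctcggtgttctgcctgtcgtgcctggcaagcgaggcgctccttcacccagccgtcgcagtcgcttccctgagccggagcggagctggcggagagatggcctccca
Acaa1a, chr9:119341044-119341343, plus strand: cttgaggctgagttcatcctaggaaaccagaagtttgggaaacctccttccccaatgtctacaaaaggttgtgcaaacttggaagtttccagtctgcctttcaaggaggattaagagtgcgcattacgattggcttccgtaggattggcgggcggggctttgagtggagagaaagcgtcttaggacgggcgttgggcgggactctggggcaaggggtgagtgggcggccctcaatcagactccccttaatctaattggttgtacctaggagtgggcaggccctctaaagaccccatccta
Acot8, chr2:164804832-164805131, minus strand: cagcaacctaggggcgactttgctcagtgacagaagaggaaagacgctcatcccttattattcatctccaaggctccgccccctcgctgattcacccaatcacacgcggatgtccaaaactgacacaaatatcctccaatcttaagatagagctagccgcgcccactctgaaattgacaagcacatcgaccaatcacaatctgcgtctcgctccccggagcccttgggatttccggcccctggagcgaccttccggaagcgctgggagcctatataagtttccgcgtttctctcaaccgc

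In Acot4 the hexamer began 13 bases upstream of the start. The windows of Pex13, Acaa1a and Acot8 held no match. The Acaa1a window lies inside the span of the gene given below, since the RefSeq start used is downstream of the annotated first base. A RefSeq window was found for 29 of the 34 members, in 34 windows. The hexamer was found in 5 of these windows, those of Acot4, Cat, Pex11g, Phyh and Scp2, against 16.3% of all 32851 windows. The forkhead core was found in 0 member windows, against 3.65% of all. These are matches of letters, and no binding was measured.

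The members differed widely in level. Catalase (Cat), which destroys the hydrogen peroxide made by the oxidases, had the highest mean of all 6 libraries at 366 FPKM. The sterol carrier and thiolase gene Scp2 followed at 293 FPKM. Together these genes made up 36.0 to 36.5% of the summed FPKM of the members in knockouts and 36.7 to 38.8% in controls. A further 3 members had a mean of at least 100 FPKM, 15 lay between 10 and 100, 12 between 1 and 10, and 2 below 1. The median of the mean levels was 22.1 FPKM for the peroxins and 13.1 FPKM for the enzymes and transporters. The lowest member, the alpha-oxidation lyase gene Hacl1, was at 0.232, 0.228 and 0.0802 FPKM in knockouts and at 0.115, 0.111 and 0.188 FPKM in controls, on 6 to 17 reads a library. It was below the 1 FPKM group mean needed for testing. Acox2 entered the test through the knockout mean alone, and the remaining 32 members reached 1 FPKM in both groups.

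**Figure D1:**
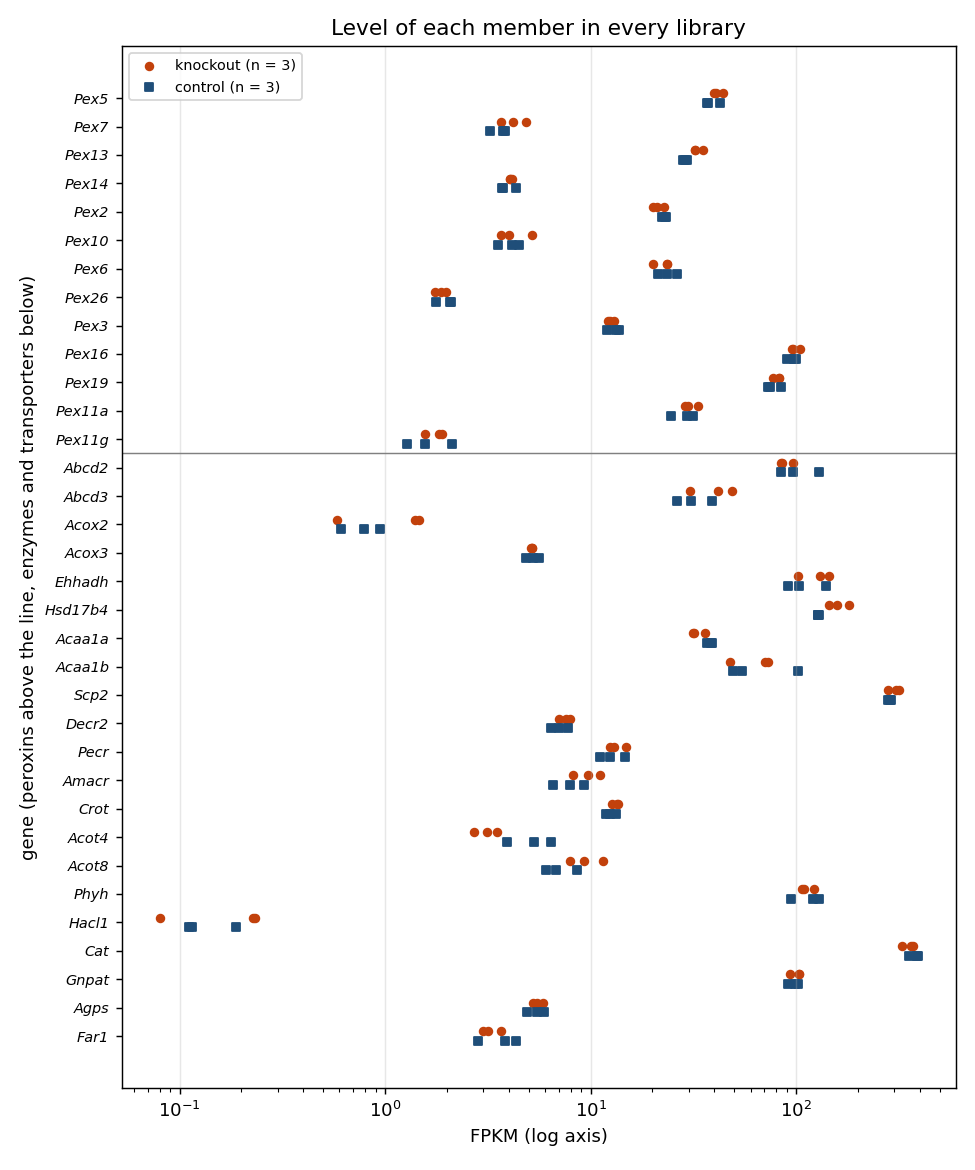
FPKM of the 34 members in each library on a log axis, with knockouts as circles above controls as squares for each gene. Levels ran from 0.0802 FPKM in 1 library for Hacl1 to 390.0 FPKM in 1 library for Cat, and the points of the 2 groups overlapped for all members except Pex13, Hsd17b4, Acaa1a and Acot4.

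Knockout and control fat overlapped in level for all members but Pex13, Hsd17b4, Acaa1a and Acot4. None of the 33 tested members passed an adjusted p of 0.05 in limma on log2(FPKM + 1), in either direction, nor with limma-voom on recovered reads. Over all 10787 genes tested the shares past that threshold were 0.00927% higher and 0.0% lower. Hsd17b4, Acot8 and Pex13 were higher in knockouts at an unadjusted p of 0.05, which is 3 of 33 members or 9.09%, against 6.98% of all genes tested. By the same measure Acot4 and Acaa1a were lower, 2 of 33 or 6.06%, against 17.1% of all genes tested. The groups did not overlap in 2 members that were higher in knockouts (6.06%, against 8.48% of all genes) and in 2 that were lower (6.06%, against 22.7% of all genes). The count of 3 higher members was 0 without knockout replicate 2, 1 without control replicate 1 or control replicate 2, and 5 without knockout replicate 3. The shares of all genes higher were then 3.73%, 5.1%, 6.31% and 7.29%, in that order. The count was 6 after median-of-ratios scaling, where 13.0% of all genes were higher. The count of 2 lower members was 1 without knockout replicate 2, knockout replicate 3, control replicate 1 or control replicate 2. In that order, 10.2%, 12.5%, 14.5% and 19.0% of all genes were then lower. The count was also 1 after median-of-ratios or upper-quartile scaling. The share of all genes lower was 9.29% after median-of-ratios scaling, and it was also below 17.1% after upper-quartile scaling.

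The peroxins had a median log2 fold change of 0.06 and the enzymes and transporters one of 0.05, beside -0.08 over all genes tested. Of the peroxins 9 of 13 (69.2%) lay above 0, and of the enzymes and transporters 12 of 20 (60.0%), where 34.0% of all genes tested did. Between the lowest and the highest value, the peroxins ran from -0.09 to 0.20 and the enzymes and transporters from -0.58 to 0.37. The 95% interval lay within 0.5 of 0 on either side for 13 of 13 peroxins and 11 of 20 enzymes and transporters (55.0%), against 62.9% of all genes tested, with a bound chosen after the values were seen. Under median-of-ratios scaling the medians were 0.14 for peroxins and 0.15 for enzymes and transporters, and the median of all genes was close to 0 (-0.0011). The peroxin median was 0.0052 when control replicate 3 was left out and 0.037 when control replicate 2 was. For the enzymes and transporters, dropping knockout replicate 1, 2 or 3 in turn gave medians of 0.026, 0.016 and 0.11, and dropping control replicate 1 or 2 gave 0.012 and 0.095.

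**Figure D2:**
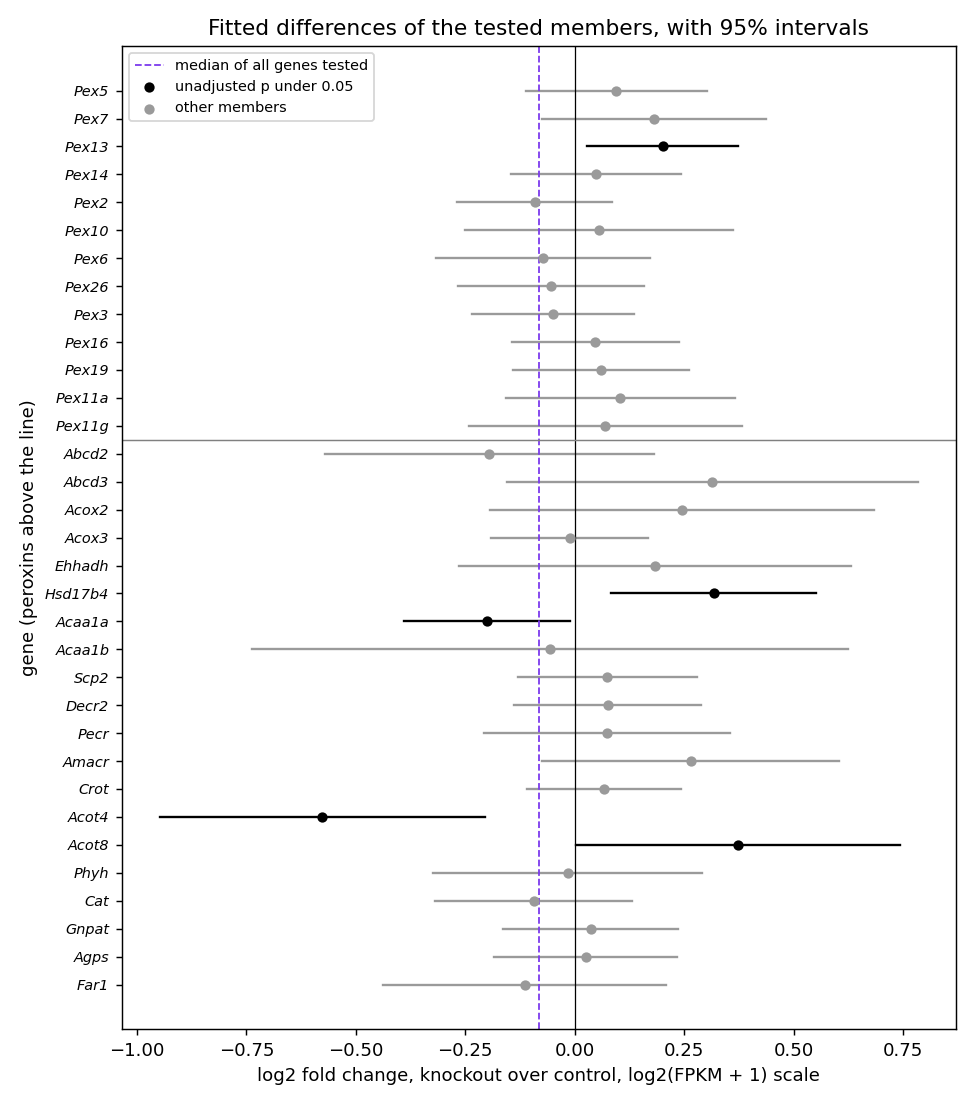
Fitted log2 fold change, knockout over control, on the log2(FPKM + 1) scale for the 33 tested members, with 95% intervals from limma and a dashed line at the median of all genes (-0.08). Black marks the 5 members with an unadjusted p under 0.05, of which Acot4 lay farthest from 0 at -0.58.

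Among the import receptors, Pex5, whose product binds the common C-terminal import signal, averaged 41.5 ± 2.20 FPKM in knockouts and 38.9 ± 3.18 FPKM in controls (SD, n = 3 each). Pex7, whose product binds the rarer N-terminal signal, was at 4.20, 4.84 and 3.64 FPKM in knockouts and at 3.23, 3.84 and 3.73 FPKM in controls. Knockout replicates 1 and 2 lay above all controls and knockout replicate 3 among them. On the log2 scale the Pex7 difference was 0.18 (SE 0.11, interval of 95% -0.07 to 0.44), at an adjusted limma p of 0.34. Over 12 alternatives it lay between 0.10 and 0.26.

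Pex13 (chromosome 11, 23646479 to 23665959, minus strand, mm10) encodes a docking protein of the import pore. It was at 32.1, 35.3 and 32.3 FPKM in knockouts and at 28.1, 28.9 and 29.4 FPKM in controls. Every knockout lay above every control, by a small margin: the ratio of the means was 1.16. Limma put the Pex13 difference at 0.20 log2 units (SE 0.07, 95% interval 0.03 to 0.37) and the adjusted p at 0.16. Over 13 alternative fits it ranged from 0.16 to 0.30, with an unadjusted p under 0.05 in 9. Its docking partner Pex14 had nearly equal means of 4.09 FPKM in knockouts and 3.93 FPKM in controls. Pex14 shares 28.3% of its exon bases with Gm17029 on the opposite strand, and a strand setting of the counting is not given in the sources used here.

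Of the other import genes among the members, Pex2, Pex10, Pex6 and Pex26 had overlapping knockout and control libraries. Pex2 averaged 21.4 ± 1.31 FPKM in knockouts and 22.8 ± 0.52 FPKM in controls, and its ring partner Pex10 averaged 4.28 ± 0.81 FPKM in knockouts and 4.05 ± 0.48 FPKM in controls (SD, n = 3 each). Pex6, an ATPase of the export motor, averaged 22.5 ± 1.93 FPKM in knockouts and 23.7 ± 2.47 FPKM in controls. Pex26, its membrane anchor, had means of 1.87 FPKM in knockouts and 1.98 FPKM in controls, well below the level of Pex6 in both groups.

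The membrane biogenesis genes included the most abundant peroxins. Pex16 averaged 99.1 ± 4.80 FPKM in knockouts and 95.9 ± 4.88 FPKM in controls, and Pex3 averaged 12.5 ± 0.37 FPKM in knockouts and 13.0 ± 0.92 FPKM in controls (SD, n = 3 each). Pex19, the chaperone of new membrane proteins, was at 82.6, 82.1 and 77.5 FPKM in knockouts and at 84.4, 74.9 and 73.3 FPKM in controls. The highest Pex19 value was that of control replicate 1. The fitted Pex19 difference, 0.06 log2 units (SE 0.09, 95% interval -0.14 to 0.26), had an adjusted limma p of 0.69, and alternatives gave 0.02 to 0.16.

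Of the division genes, Pex11a, an inducible form, was at 28.8, 29.7 and 33.3 FPKM in knockouts and at 29.6, 31.4 and 24.5 FPKM in controls, with overlapping groups. On the log2 scale the Pex11a difference was 0.10 (SE 0.11, interval of 95% -0.16 to 0.37), at an adjusted limma p of 0.59. It was 0.0024 without control replicate 3 and reached 0.20 after median-of-ratios scaling. Pex11g had means of 1.77 FPKM in knockouts and 1.65 FPKM in controls, on 70 to 105 reads a library, and 41.1% of its exon bases overlap Gm44775 on the opposite strand.

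Abcd2 and Abcd3 encode transporters that bring fatty acyl-CoA into the peroxisome. Abcd3 was at 48.9, 41.5 and 30.3 FPKM in knockouts and at 30.9, 26.3 and 38.8 FPKM in controls. Knockout replicates 1 and 2 exceeded all controls, and knockout replicate 3 lay below control replicates 1 and 3. Limma put the Abcd3 difference at 0.31 log2 units (SE 0.20, 95% interval -0.15 to 0.78) and the adjusted p at 0.36. It ranged from 0.16 to 0.50 over 13 alternatives. Abcd2, the more abundant of the pair, averaged 89.0 ± 6.92 FPKM in knockouts and 104 ± 23.5 FPKM in controls (SD, n = 3 each), where control replicate 1 stood apart at 129.8 FPKM.

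The oxidases catalyse the first step of peroxisomal beta-oxidation. Acox2, which acts on bile acid intermediates and branched chains, was at 0.584, 1.46 and 1.39 FPKM in knockouts and at 0.613, 0.943 and 0.787 FPKM in controls, on 32 to 78 reads a library. Its lowest value was also a knockout, and the fold change of 0.25 (SE 0.19, 95% interval -0.19 to 0.68; adjusted p = 0.44 in limma) is on a log2(FPKM + 1) scale that compresses such low levels. Without knockout replicate 1 the Acox2 difference was 0.45, at an unadjusted p of 0.0131 and an adjusted p of 0.22 in limma, and the lowest of 11 alternatives was 0.15. Acox3 had means of 5.18 FPKM in knockouts and 5.24 FPKM in controls.

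Hsd17b4 (chromosome 18, 50128201 to 50196269, plus strand, mm10) encodes D-bifunctional protein, which carries out the hydratase and dehydrogenase steps for branched and very-long-chain substrates. It was at 158, 181 and 145 FPKM in knockouts and at 129.7, 128 and 128 FPKM in controls. The controls lay close together and every knockout lay above them, at 1.25 times the control mean. The fitted Hsd17b4 difference, 0.32 log2 units (SE 0.10, 95% interval 0.08 to 0.55), had an adjusted limma p of 0.13. It ranged from 0.23 to 0.42 over 13 alternatives, with an unadjusted p under 0.05 in 12 of them, and not without knockout replicate 2. These values rest on 7456 to 8162 reads in knockouts and 6221 to 7025 reads in controls.

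Ehhadh encodes the L-bifunctional enzyme, which performs the same steps on straight chains. It was at 130.2, 145 and 102 FPKM in knockouts and at 103, 140.3 and 91.1 FPKM in controls. Both groups spread widely and overlapped, and knockout replicate 2 and control replicate 2 were the highest of their groups. Whether the genotype difference in Hsd17b4 differs from that in Ehhadh was not tested.

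The thiolase genes Acaa1a and Acaa1b, which release acetyl-CoA, did not vary alike between libraries. Whether their genotype differences differ was not tested. Acaa1a (chromosome 9, 119339676 to 119350299, plus strand, mm10) was at 35.9, 32.0 and 31.6 FPKM in knockouts and at 39.1, 38.6 and 36.8 FPKM in controls. Every knockout lay below every control, with knockout replicate 1 and control replicate 3 closest. On the log2 scale the Acaa1a difference was -0.20 (SE 0.08, interval of 95% -0.39 to -0.01), at an adjusted limma p of 0.19, and under 13 alternatives it ran from -0.26 to -0.10, with an unadjusted p under 0.05 in 6. Acaa1b was at 72.8, 70.3 and 47.5 FPKM in knockouts and at 49.3, 102 and 54.5 FPKM in controls. Its range of 2.15 times between the lowest and the highest library exceeded that of Acaa1a, 1.24 times, and control replicate 2 alone was at the top.

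These neighbouring genes share sequence. Of the 50-base words in their annotated transcripts, 39.6% for Acaa1b and 17.1% for Acaa1a also occurred in other genes, mostly in each other. How the counting treated reads of the shared parts was not tested. Acaa1b shares 11.4% of its exon bases with Dlec1 on the opposite strand, a gene at no more than 0.491 FPKM in any library. Acaa1a also shares 6.57% of its exon bases with Myd88 on the opposite strand. Myd88, a signalling adaptor of immune cells, was at 6.62, 6.28 and 5.21 FPKM in knockouts and at 6.70, 6.46 and 8.07 FPKM in controls. Whether its reads entered the Acaa1a values was not tested.

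Scp2, which also holds a thiolase for branched chains, was at 305, 317 and 279.5 FPKM in knockouts and at 280.4, 288 and 287 FPKM in controls. The lowest Scp2 value was that of knockout replicate 3. Limma put the Scp2 difference at 0.07 log2 units (SE 0.09, 95% interval -0.13 to 0.28) and the adjusted p at 0.62, while alternatives gave 0.04 to 0.17. A share of 29.7% of its transcript words recurs in other genes, above all the pseudogene Scp2-ps2, which makes its level uncertain.

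**Figure D3:**
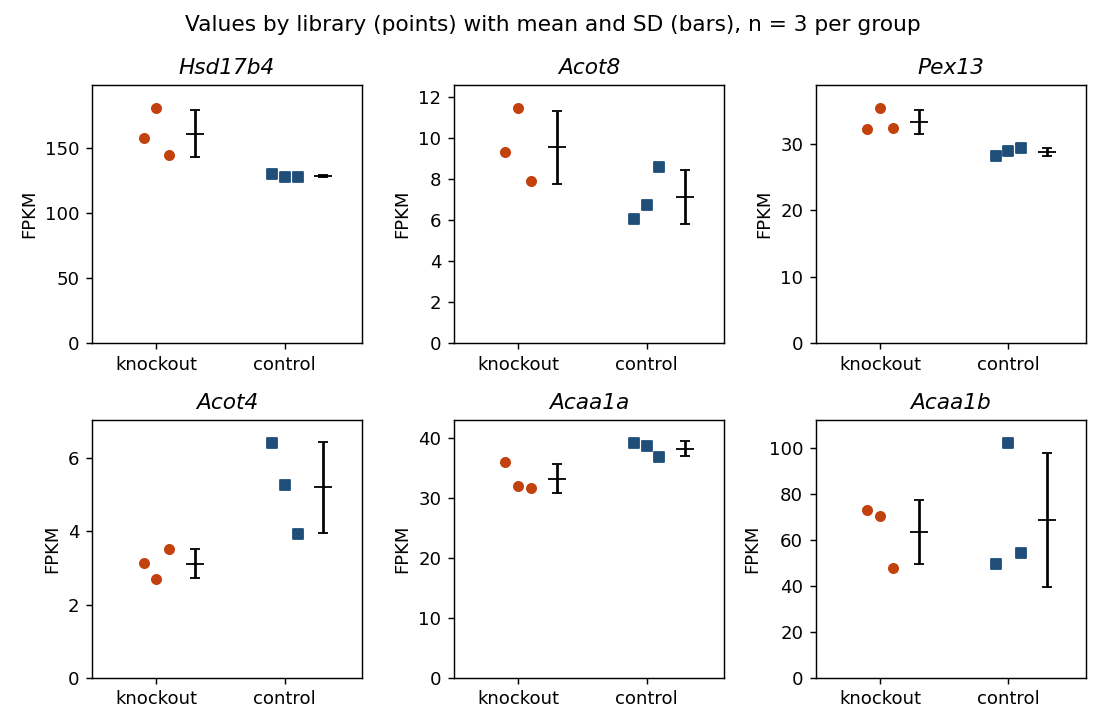
FPKM by library for 6 members, knockouts left of controls, with mean and SD (n = 3 per group). Knockouts lay above all controls for Hsd17b4 and Pex13 and below all controls for Acot4 and Acaa1a, while the groups overlapped for Acot8 and Acaa1b.

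The largest fitted difference among the members was in a thioesterase. Acot4 (chromosome 12, 84038379 to 84048601, plus strand, mm10), known in mouse to hydrolyse succinyl-CoA and other dicarboxylic acyl-CoAs, was at 3.13, 2.71 and 3.51 FPKM in knockouts and at 6.41, 5.28 and 3.92 FPKM in controls. All knockouts lay below all controls, though knockout replicate 3 and control replicate 3 were close. The knockout mean of 3.12 ± 0.40 FPKM was 0.599 times the control mean of 5.21 ± 1.25 FPKM (SD, n = 3 each), on 240 to 355 reads in knockouts and 422 to 603 reads in controls. The fitted Acot4 difference, -0.58 log2 units (SE 0.16, 95% interval -0.95 to -0.20), had an adjusted limma p of 0.11. It ranged from -0.73 to -0.44 over 13 alternatives, with an unadjusted p under 0.05 in all 13 and an adjusted p of 0.081 to 0.32. Its promoter is the one printed above with the hexamer close to the start. Cat, Pex11g, Phyh and Scp2 also hold the hexamer, and any link of the motif to the Acot4 difference was not tested.

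Acot4 has close relatives beside it. Of its transcript words 13.4% recur in other genes, chiefly 4732463B04Rik, which overlaps 9.21% of its exon bases on the opposite strand, and Acot3 and Acot6. Acot6 was at 1.94, 1.51 and 1.90 FPKM in knockouts and at 1.75, 1.12 and 1.42 FPKM in controls. Its groups overlapped, with the higher mean in knockouts. Acot3 did not exceed 0.108 FPKM in any library. Whether reads of these genes or of 4732463B04Rik entered the Acot4 values was not tested.

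Acot8, a thioesterase of broad chain length, was at 9.31, 11.5 and 7.91 FPKM in knockouts and at 6.08, 6.75 and 8.61 FPKM in controls. The groups overlapped because knockout replicate 3 lay below control replicate 3. On the log2 scale the Acot8 difference was 0.37 (SE 0.16, interval of 95% 0.0031 to 0.74), at an adjusted limma p of 0.21. It ranged from 0.25 to 0.50 over 13 alternatives, with an unadjusted p under 0.05 in 5. Acot8 shares 12.3% of its exon bases with Snx21 on the opposite strand, a gene at 6.00, 6.17 and 5.86 FPKM in knockouts and 6.47, 7.38 and 6.67 FPKM in controls. Crot, which hands shortened chains to carnitine for export, averaged 13.2 ± 0.43 FPKM in knockouts and 12.6 ± 0.72 FPKM in controls (SD, n = 3 each).

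The auxiliary enzymes act on chains with branches or double bonds. Amacr, the racemase for branched chains, was at 9.76, 11.2 and 8.24 FPKM in knockouts and at 6.56, 7.93 and 9.31 FPKM in controls. Control replicate 3 lay inside the knockout range. Limma put the Amacr difference at 0.26 log2 units (SE 0.14, 95% interval -0.07 to 0.60) and the adjusted p at 0.30, while alternatives gave 0.15 to 0.37. Decr2, a dienoyl-CoA reductase, had means of 7.48 FPKM in knockouts and 7.06 FPKM in controls, and Pecr, an enoyl-CoA reductase, had means of 13.4 FPKM in knockouts and 12.8 FPKM in controls.

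Phyh, the hydroxylase that begins alpha-oxidation of phytanic acid, was at 109, 122 and 107 FPKM in knockouts and at 94.8, 129.5 and 121 FPKM in controls. The controls spanned the whole knockout range. The fitted Phyh difference, -0.02 log2 units (SE 0.13, 95% interval -0.32 to 0.29), had an adjusted limma p of 0.95. Its partner Hacl1, which cleaves the next intermediate, was at a far lower level in both groups. Hacl1 shares 31.1% of its exon bases with Gm49387 on the same strand. Whether this overlap lowered its counted reads was not tested.

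Cat was at 364, 371 and 327 FPKM in knockouts and at 354, 389 and 389.95 FPKM in controls. Knockout replicate 3 was lowest, and the other knockouts lay between control replicate 1 and the remaining controls. On the log2 scale the Cat difference was -0.09 (SE 0.10, interval of 95% -0.32 to 0.13), at an adjusted limma p of 0.57, and under median-of-ratios scaling it was 0.0052.

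The ether lipid genes act in order: Gnpat acylates dihydroxyacetone phosphate, Far1 supplies fatty alcohol and Agps exchanges it in. Gnpat averaged 99.9 ± 5.50 FPKM in knockouts and 97.4 ± 5.54 FPKM in controls, and Agps averaged 5.54 ± 0.33 FPKM in knockouts and 5.44 ± 0.51 FPKM in controls (SD, n = 3 each). Far1 was at 3.67, 3.16 and 3.01 FPKM in knockouts and at 3.84, 2.82 and 4.34 FPKM in controls. The lowest and the highest Far1 values were both controls. Limma put the Far1 difference at -0.11 log2 units (SE 0.14, 95% interval -0.44 to 0.21) and the adjusted p at 0.63. Alternatives gave -0.25 to -0.01.

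Variation between libraries was uneven among the members. The highest library exceeded the lowest by more than 1.5 times in 11 members, all of them enzymes or transporters except Pex11g. Knockout replicate 2 held the highest value of 10 of the 34 members, and knockout replicate 3 that of 1. After median-of-ratios scaling, knockout replicate 2 held the highest value of 16 members, and control replicate 3 the lowest of 14. The same counts were not made over all genes, so they cannot be read as a trait of the members. The summed FPKM of the members was 1860, 1907 and 1663 in knockouts and 1721, 1845 and 1742 in controls, so the groups overlapped.

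Other peroxisome genes, in a list of 70 chosen with earlier results of these data known, were examined beside the members: 69 were found in the table and 59 were tested. None passed an adjusted p of 0.05 in limma or limma-voom. Counting unadjusted p under 0.05, knockouts were higher in 14 (23.7%, against 6.98% of all genes tested) and lower in 2 (3.39%, against 17.1%), with a median log2 fold change of 0.06. The 2 lower genes were Usp30 and Pxmp2. The count of 14 was 8 without knockout replicate 2, where 3.73% of all genes were higher. It was 20 after median-of-ratios or upper-quartile scaling, where 13.0% and 12.0% of all genes were higher. The list includes regulators and proteins that also work in mitochondria, such as Ppargc1a, Ppara and Mlycd, and genes known to respond to cold in fat.

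Slc25a17, the peroxisomal carrier for coenzyme A and other cofactors, was at 61.1, 69.5 and 52.2 FPKM in knockouts and at 36.4, 39.1 and 40.5 FPKM in controls. Every knockout lay above every control, by a fitted 0.63 log2 units (SE 0.11, adjusted p = 0.077 in limma). Tysnd1, the protease that processes imported oxidation enzymes, was at 50.7, 54.3 and 50.7 FPKM in knockouts and at 30.8, 39.2 and 43.3 FPKM in controls, also without overlap. The fit gave 0.46 log2 units (SE 0.13, adjusted p = 0.11 in limma). Acbd4, an acyl-CoA binding protein known in human cells to tether peroxisomes to the endoplasmic reticulum, was at 80.8, 75.2 and 77.2 FPKM in knockouts and at 62.5, 63.7 and 58.4 FPKM in controls. Its fitted difference was 0.33 log2 units (SE 0.08, adjusted p = 0.088 in limma). Tmem135 was at 42.4, 38.9 and 39.3 FPKM in knockouts and at 32.7, 30.0 and 32.0 FPKM in controls, a difference of 0.34 log2 units (SE 0.08, adjusted p = 0.088 in limma). Nudt19, a coenzyme A diphosphatase, was at 16.7, 18.3 and 16.8 FPKM in knockouts and at 13.5, 14.7 and 13.5 FPKM in controls, 0.29 log2 units apart (SE 0.08, adjusted p = 0.10 in limma). The coactivator Ppargc1a was at 12.2, 20.8 and 12.1 FPKM in knockouts and at 5.65, 8.02 and 5.44 FPKM in controls, with a fitted 1.1 log2 units (SE 0.23, adjusted p = 0.082 in limma). The groups did not overlap for any of these. Over the list, 15 of 59 tested genes were higher without overlap (25.4%, against 8.48% of all genes). These 6 genes were picked from the list for the smallest p in these same data. They had an unadjusted p under 0.05 in the same direction in each of 13 alternatives. The alternatives refit the same libraries, so they add no separate support.

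**Figure D4:**
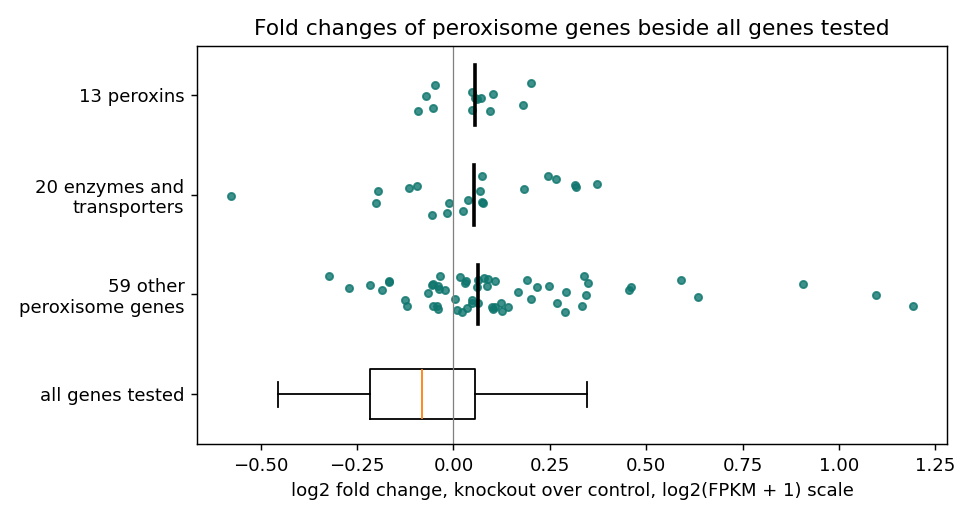
Log2 fold change, knockout over control, of each tested peroxin, enzyme or transporter and other peroxisome gene (points, with black bars at the medians of 0.06, 0.05 and 0.06), above a box of all 10787 genes tested (quartiles, whiskers at the 5th and 95th percentiles). Acot4 is the lowest point, at -0.58, and several of the other peroxisome genes lie above 0.5.

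Recovered reads per library ran from 13180588 to 15027615 in knockouts and from 13984162 to 15998332 in controls. Foxp4 was at 1.92, 1.71 and 1.64 FPKM in knockouts and at 5.76, 4.01 and 4.62 FPKM in controls, without overlap, which matches the labels. Summed markers of mature adipocytes (10 of 10 found) were 11217 to 12007 FPKM in knockouts and 14057 to 15383 FPKM in controls, and those of thermogenic adipocytes (8 of 8) were 3416 to 5085 FPKM in knockouts and 1528 to 3337 FPKM in controls. The thermogenic list includes Ppargc1a, named above, and Ucp1. Ucp1 was at 2898, 3009 and 1875 FPKM in knockouts and at 800, 1333 and 2007 FPKM in controls, with overlap. Macrophage markers (9 of 9) summed to 368 to 478 FPKM in knockouts and 583 to 777 FPKM in controls. Markers of progenitors and fibroblasts (8 of 8) summed to 376 to 494 FPKM in knockouts and 407 to 974 FPKM in controls, and those of skeletal muscle (10 of 10) to 22.9 to 358 FPKM in knockouts and 18.1 to 76.0 FPKM in controls. Erythroid markers (4 of 4) summed to 575 to 1087 FPKM in knockouts and 968 to 1932 FPKM in controls. Markers of hepatocytes (3 of 3), epithelium (5 of 5, with Krt14 at 0 throughout) and lymph node (4 of 4) summed to at most 50.4, 0.462 and 1.85 FPKM in knockouts and 62.3, 1.13 and 1.94 FPKM in controls. At an unadjusted limma p under 0.05, 4 of 10 mature adipocyte, 9 of 9 macrophage and 5 of 8 progenitor and fibroblast markers were lower. The share of all genes tested was 17.1%. By the same measure 5 of 8 thermogenic markers were higher, against 6.98% of all genes tested. No marker of these lists went the other way at that threshold. The part of these cell types in the values of the peroxisome genes was not tested, and in whole tissue fewer cells of a type and less RNA per cell cannot be told apart.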

How the data were processed

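The 6 libraries were made from total RNA with a stranded mRNA kit, per the labels' protocols. Cutadapt, HISAT2, HTSeq and the build mm10 come from the submitters' processing notes; no version, annotation or strand setting is stated there. The authors deposited FPKM per gene for 21936 rows, with 1 column per library. A total of 36 rows that repeat a symbol were left out in favour of the row with the higher mean.

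Values multiplied by merged exon length (GENCODE M21) and 1 scale per library gave a read number within 0.05 of an integer for 97.9 to 98.1% of the values that stand for 50 reads or fewer. Reads of 21304 genes were recovered this way.

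The 10787 genes whose knockout or control mean reached 1 FPKM were tested on log2(FPKM + 1) with limma 3.58.1 (R 4.3.3) and its trend option. This is a scale that understates changes of low genes. Genotype was the only term, with Benjamini-Hochberg adjustment over all genes. An exact test of 3 against 3 libraries cannot go below 0.1 (two-sided). The step was also run on simulated data with independent noise for each gene and no shift common to a library. That run does not cover such shifts, and its outcome is not given here. Alternatives were a pseudocount of 0.1, other filters and scalings, the replicate number as a block, limma-voom on recovered reads and leaving out each library.

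The members and lists were chosen with earlier results of these data known. Values in every library and a fold change are given for members with an unadjusted p under 0.05, the 3 of highest level, the member with the smallest p of each role and the 6 other peroxisome genes with the smallest p. Some partner genes are not reported here. Acot3, Acot6, Myd88 and Snx21 were added after values were seen, as were members and genes named without a fold change. Promoter windows are those of RefSeq on GRCm38.p6, and the 2 motifs were chosen after values were seen; repeats of the hexamer were also searched and are not reported. Marker lists covered mature and thermogenic adipocytes, macrophages, progenitors and fibroblasts, skeletal muscle, hepatocytes, epithelium, erythroid cells and lymph node.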

Additional observations from a re-analysis of the deposited data

How the results depend on the processing

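Of 13 alternatives, none brought a member past an adjusted p of 0.05 in limma or limma-voom. The count over all genes tested, 1 with all 6 libraries, was 0 without a filter, 2 with a filter at 5 FPKM, 0 with the replicate number as a block, 0 with limma-voom on recovered reads, and 0 to 5 when 1 library was left out. The members higher at an unadjusted p of 0.05 (3) were 6 after median-of-ratios scaling, 1 with the block and 0 to 5 when 1 library was left out. The share of all genes higher, 6.98% in the main fit, was then 13.0%, 5.92% and 3.73 to 8.33%. It was 12.0% after upper-quartile scaling. The members lower (2) were 1 after median-of-ratios or upper-quartile scaling, 1 with the block and 1 to 2 when 1 library was left out. The share of all genes lower was 17.1% in the main fit and 9.29% after median-of-ratios scaling. It was also below 17.1% after upper-quartile scaling, 14.6% with the block and 10.2 to 19.0% when 1 library was left out. The median of the peroxins was 0.14 after median-of-ratios scaling and 0.0052 to 0.073 when 1 library was left out, and that of the enzymes and transporters 0.012 to 0.11 when 1 library was left out. The other peroxisome genes higher (14) were 20 after median-of-ratios or upper-quartile scaling and 8 to 15 when 1 library was left out; those lower (2) were 4 without a filter, 1 with a filter at 5 FPKM, 0 after median-of-ratios or upper-quartile scaling, 1 with the block, 1 with limma-voom, and 0 to 2 when 1 library was left out. These counts for the other peroxisome genes were added after the data were seen. Of all genes tested, 12.7% were lower without a filter, 16.6% with a filter at 5 FPKM and 17.5% with limma-voom. The cause of these shifts was not tested, except that leaving out a library leaves fewer samples.

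Of 21 named genes, 19 kept their direction in each alternative in which they were tested. The exceptions, Cat and Phyh, lay near 0. The named genes were mostly picked for a small p in the same libraries that the alternatives refit. Their kept direction therefore adds no separate support. After median-of-ratios scaling the log2 fold change was 0.0052 for Cat and 0.082 for Phyh, and after upper-quartile scaling 0.066 for Phyh. When 1 library was left out, Phyh ranged from -0.15 to 0.075. Same-numbered libraries had correlations of their deviations from the group means of 0.065, 0.027 and -0.254. Differently numbered libraries had correlations of -0.231 to 0.182. Such values cannot show whether same-numbered samples were paired, and the block is an alternative only. Low read numbers limit Hacl1, Acox2 and Pex11g.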
